A study of Drosophila melanogaster with 2 samples.

Results

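The peaks described here are those of GFP-tagged Ovo whose highest point lay in an exon of a protein-coding gene and away from every promoter. They were taken from the first 10000 rows, ranked by score, of a list of 30000 rows. The authors called this list, which holds peaks and background, on both replicates together (the pooled list, genome build dm6). A peak was kept where its summit fell in an annotated exon and more than 500 bp from every transcription start site (TSS) of a protein-coding gene. In all, 496 of the 10000 rows met the rule (4.96%), of which 135 had the summit in a 5' UTR, 186 in a coding exon and 175 in a 3' UTR. Of the remaining rows, 5401 lay within 500 bp of a TSS (called promoter peaks below), 3189 in introns and 914 outside protein-coding genes. Of the 496 exonic rows, 363 were not in the list that the authors cut at a threshold, among them 167 of the 186 in coding exons. The peaks were thus chosen by score and position, so how scores and positions are distributed is given as description. Tests are of sequence at the summits, which the rule did not use.

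The data are chromatin immunoprecipitation with sequencing (ChIP-seq) from whole adult female Drosophila melanogaster that carried a transgene for Ovo fused at its C terminus to GFP. Chromatin was sheared by sonication and precipitated with an antibody against GFP. The study has 1 group with 2 biological replicates, numbered 1 and 4, and no untagged or untreated flies among the samples, so no conditions could be compared. The labels give the age of the flies as unknown, and whole animals were used, so the tissue from which a peak came cannot be told. The score is a value the authors gave each peak, taken here as its enrichment because no source used here defines it, and it serves for ranks and descriptions inside 1 list. The deposited lists hold no read counts, so sequencing depth is unknown, and intervals and p-values cover the counting of peaks only. Peaks of 1 immunoprecipitation are not biological replicates.

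Ovo is a zinc-finger transcription factor needed for the female germline of Drosophila, where it acts on genes such as ovarian tumor (otu) and on its own gene. Transcription factors are usually found at promoters and enhancers, and exons hold both coding sequence, which is read as codons, and untranslated regions (UTRs), which carry sites for translation and for mRNA stability. An exon of 1 transcript can be an intron or lie beside a promoter in another, so an exonic position alone does not say what a DNA-binding protein meets there.

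Sequences are shown for peaks of high score in each class that hold the Ovo core site TAACNGT, where N is any base, within 50 bp of the summit. CG46385, a 5' UTR peak with the site that ranks above syd, is described without its sequence. The 7 bases of the site are in capitals with 10 bases on either side, read 5′ to 3′ on the strand that carries TAACNGT, from the dm6 reference genome. The first 3 are from 5' UTRs, the next 4 from coding exons and the last 4 from 3' UTRs.

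Smox, chrX:8141629-8141655, plus strand: atattacctgTAACGGTaccggcaact

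Kr-h1, chr2L:6083409-6083435, plus strand: gttcctcttcTAACGGTctcactgagt

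syd, chr3L:7935603-7935629, minus strand: attgcctgcaTAACGGTtaacgcgtga

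B4, chr2L:13512948-13512974, minus strand: cagctgcatgTAACGGTaagcttagcg

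rt, chr3L:11586815-11586841, plus strand: attctcaggtTAACGGTaaatggctgc

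bif, chrX:11682305-11682331, plus strand: cccacaaaggTAACGGTaaaaccgaca

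Wdr62, chr2L:1910124-1910150, minus strand: ccctatccatTAACTGTtcatcgttcc

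CG16989, chrX:796818-796844, plus strand: ataaagtaacTAACGGTttctccccat

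Act5C, chrX:5904806-5904832, minus strand: accgttgcagTAACGGTtgttagacaa

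Rala, chrX:3704611-3704637, plus strand: gctgtttattTAACGGTaaaattccat

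Tctp, chr3R:11211478-11211504, minus strand: ccaatgacggTAACGGTattggtgcgg

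In 10 of these 11 windows the open base was G, and in Wdr62 it was T. The syd window reads as an overlapping pair, since the opposite strand of the same bases holds TAACCGT. Over all exonic peaks, 74 sites lay within 50 bp of the summit of 58 peaks, and the open base was G at 47 of them, T at 14, C at 8 and A at 5. Among these sites, 52 of 74 (70.3%) were within 25 bp of the summit, and the median distance was 14 bp. Only sites within 50 bp were searched for, so these distances are bounded by the search. TAACNGT was on the coding strand of the host gene at 50 sites and on the opposite strand at 24 (67.6% on the coding strand). Sites of the same peak are not independent, and overlapping pairs such as that of syd count on both strands. The 5 sites that end at a 5' splice site, described below, lie on the coding strand by definition. A strand preference was not tested.

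The 3 exonic classes differed in how densely the genome's sequence of that class was covered. There were 127 peaks per Mb of 5' UTR (exact Poisson 95% interval 107 to 151), 25.3 per Mb of 3' UTR (21.7 to 29.4) and 10.5 per Mb of coding exon (9.01 to 12.1). Introns held 60.6 per Mb (58.5 to 62.7), promoters 352 (343 to 362) and sequence outside protein-coding genes 22.8 (21.3 to 24.3). Coding exons make up 13.3% of the genome searched and were the least densely covered of the 6 classes. The 5' UTR class is small, at 1.06 Mb, against 17.8 Mb of coding exon and 6.91 Mb of 3' UTR beyond promoters.

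Scores followed a like order. The median score was 70.7 for 5' UTR peaks, 55.2 for 3' UTR peaks and 47.8 for coding-exon peaks, against 78.1 at promoters and 62.1 in introns. Outside protein-coding genes it was 62.3, above the 3' UTR value although peaks per Mb were fewer there. The authors also deposited a thresholded list, which is the head of the pooled list and takes in 44.8% of the 10000 rows used here. It held 62 of the 135 5' UTR peaks (45.9%), 52 of the 175 3' UTR peaks (29.7%) and 19 of the 186 coding-exon peaks (10.2%), together 133 of 496 (26.8%). The rule ends at a score of 41.34. The last members inside it were in coding exons of rho-5 (41.46), CG15531 (41.38) and CG14435 (41.36), and the next exonic rows outside it were in coding exons of jing (41.32), Myo95E (41.30) and pio (41.30).

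**Figure D1:**
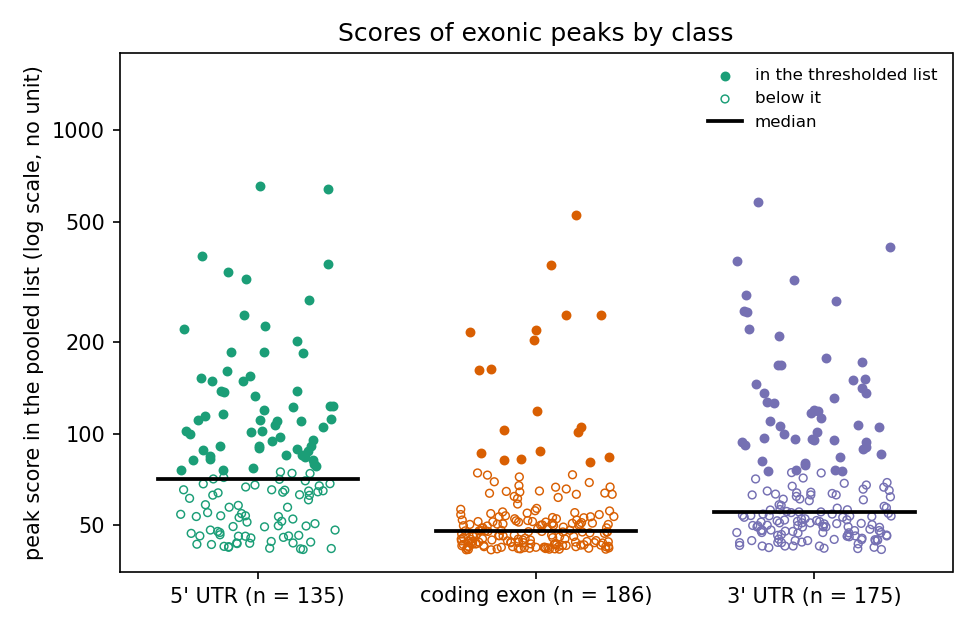
Score in the pooled list of each exonic peak (points, log axis, no unit) by class; filled points are in the thresholded list, open points are below it, and black bars are medians. The medians are 70.7 for 5' UTR, 47.8 for coding exon and 55.2 for 3' UTR, and most coding-exon peaks lie just above the lowest score the rule admits.

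Coding-exon peaks gathered at the weak end of the list. Of each 1000 rows, the first held 7 coding-exon peaks and the tenth held 63, while 5' UTR peaks numbered 14 in the first and 15 in the tenth. Beyond the 10000 rows the share was higher still: coding exons held 0.48% of rows 1 to 5000, 3.24% of rows 5001 to 10000 and 11.1% of rows 10001 to 15000. In the next 3 blocks of 5000 rows it was 16.2%, 17.4% and 16.6%. These last values are above the 13.3% of the genome that the class makes up. The share of 5' UTR rows lay between 1.04% and 1.38% in all 6 blocks of 5000 rows. The share of 3' UTR rows went from 1.12% in the first block to 4.98% in the last, near the 5.16% of the genome that 3' UTRs cover.

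**Figure D2:**
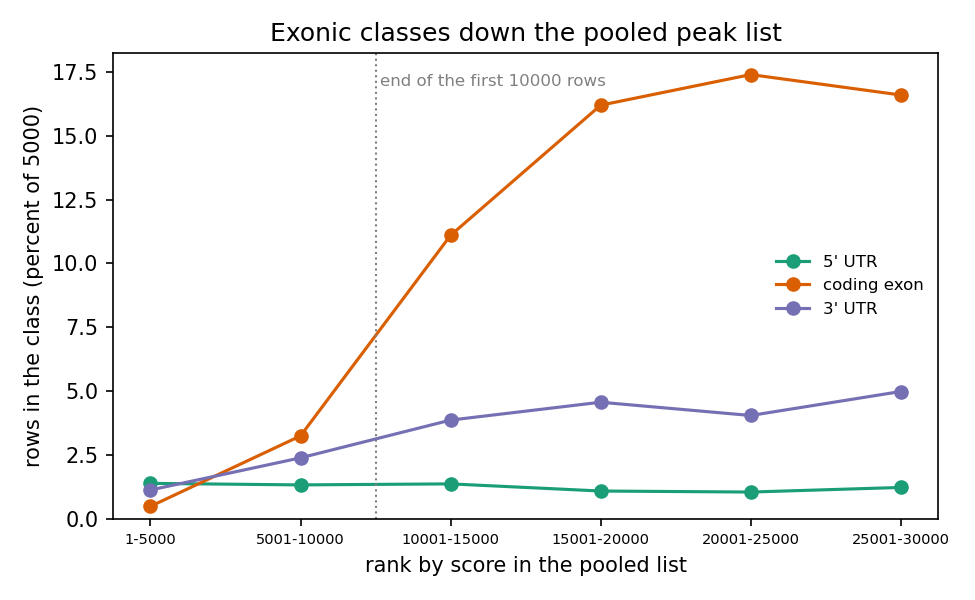
Share of rows (percent of 5000) in each exonic class for 6 successive blocks of the pooled list ordered by score; the dotted line marks the end of the 10000 rows used. The coding-exon share climbs from 0.48% to 17.4% in the fifth block and is 16.6% in the last, whereas the 5' UTR share stays between 1.04% and 1.38%.

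Among 5' UTR peaks, the highest score was 658, at rank 19 of the whole list, in spen (chr2L:160815-161147), which encodes a large nuclear RNA-binding regulator of transcription. Its score was 303 in replicate 1, where it ranked 18, and 364 in replicate 4, where it ranked 19. Further spen 5' UTR peaks scored 341 (rank 194) and 137, the last 2 with overlapping intervals. None of the 3 spen peaks had the core site. The summit of the strongest lay in an exon of 1 transcript and in an intron of 4 others, 1913 bp from the nearest TSS. Fer1HCH, the ferritin heavy chain gene, had the next score (642, rank 21; chr3R:30386850-30387161), with 306 in replicate 1 and 336 in replicate 4. Its summit too was exonic in 1 transcript and intronic in 8.

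Smox encodes a Smad protein of activin signalling, and its 5' UTR peak scored 386 (chrX:8141566-8141735), with 187 in replicate 1 and 203 in replicate 4. Kr-h1, a zinc-finger gene that responds to juvenile hormone, had a score of 363 (chr2L:6083315-6083492), with 158 and 200 in the 2 replicates. CG46385 followed at 323 (137 and 179 in the replicates) and syd, which encodes a scaffold protein that binds the kinesin motor, at 275 (131 and 141). These 4 held the core site, whereas the spen and Fer1HCH peaks did not. All 5 of spen, Fer1HCH, Smox, Kr-h1 and CG46385 ranked within the first 300 rows of both replicate lists at their highest peak. For syd, the ranks were 288 in replicate 1 and 468 in replicate 4. psq, a gene of the Polycomb and trithorax list whose protein binds GAGA repeats, had a thresholded 5' UTR peak of score 122, 547 bp from the TSS.

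As a class, 5' UTR peaks were near promoters and often intronic in another transcript. The median distance to the nearest TSS was 747 bp, and 26 of the 135 lay in the first 50 bp beyond the limit of 500 bp, so that the count depends on that limit: it was 315 with a limit of 250 bp and 46 with a limit of 1000 bp. In 62 of 135 (45.9%) the summit was in an intron of another transcript of the same gene, compared with 8.06% of coding-exon peaks and 10.9% of 3' UTR peaks. A summit of higher score lay within 1000 bp of 49 (36.3%), compared with 25% of all 10000 rows, and for 35 of 135 (25.9%) such a summit was at a promoter. For coding-exon and 3' UTR peaks the share with a stronger promoter summit nearby was 14% and 4.57%. Whether the neighbouring summits contributed to the 5' UTR scores was not tested.

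The coding-exon peak of highest score was in B4 (525, rank 45; chr2L:13512824-13513058), 14860 bp from the nearest TSS, with scores of 214 in replicate 1 and 309 in replicate 4. The second was in rt (360, rank 159; chr3L:11586753-11586954), the gene of a protein O-mannosyltransferase, with 148 and 212. bif, whose product binds actin, had a peak of score 247 (108 and 145 in the replicates) and a second coding-exon peak of score 103. These 3 highest peaks of B4, rt and bif each held the core site. Then came otp, a homeobox gene, at 246 (91.7 and 154), cact, the inhibitor of the Dorsal transcription factor, at 220 (89.7 and 127), and klar, which acts in the positioning of nuclei, at 216 (87.9 and 137). No core site lay within 50 bp of the summits in otp, cact or klar. Scores of the 2 replicates come from lists scored separately, so their ranks are the firmer comparison: otp ranked 711 in replicate 1 and 355 in replicate 4, and cact 759 and 606.

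The fourth coding-exon peak with a core site was far weaker. It was in Wdr62, which encodes a protein of the mitotic spindle pole, with a score of 87.6 and rank 3555. Its score was 44.5 in replicate 1 and 32.4 in replicate 4. arm, which encodes beta-catenin, was the gene of the follicle-cell signalling list with a thresholded member: its coding-exon peak scored 80.5, 540 bp from a TSS, with ranks of 2263 and 7594 in the 2 replicates. The summits of coding-exon peaks were spread along the gene, with a median position 55% of the way from its 5' to its 3' end. The median host exon was 914 bp long, and in 76 of 186 (40.9%) the whole peak interval fitted within the exon, so most intervals also covered intron, UTR or other sequence. However, 184 of the 186 intervals had the same width, so an interval was not taken as the extent of binding.

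In 4 of the 12 coding-exon peaks with a core site, the site crossed a 5' splice site, its last 2 bases being the first 2 of an annotated intron. They were in B4, DCP2, CG2924 and Abl, and were noticed after their values were seen. B4 was the highest-scoring coding-exon peak. DCP2, the mRNA-decapping enzyme, scored 51.3, CG2924 51.1 and Abl, a tyrosine kinase gene, 43.2. These last 3 ranked 7505, 7531 and 9443, so only B4 was in the thresholded list. The B4 site is shown above, and the other 3 are given here in the same way, with GT, the last capitals, opening the intron.

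DCP2, chr3L:15825459-15825485, minus strand: gcaaggatgaTAACGGTaggcgggtct

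CG2924, chrX:2268926-2268952, minus strand: cacgccaacaTAACGGTaagtcaccga

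Abl, chr3L:16646798-16646824, minus strand: tcaccgagcaTAACGGTaagttcctgc

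The share, 4 of 12 (33.3%, exact 95% interval 9.92 to 65.1), compared with 1 of 26 such 5' UTR peaks (3.85%, in baz), 0 of 20 such 3' UTR peaks, 19 of 549 promoter peaks (3.46%, 2.1 to 5.35) and 0 of 311 intronic peaks. Of 53242 annotated splice donors of protein-coding genes, 174 (0.327%) complete the letters TAACNGT. A summit of the first 10000 rows lay within 50 bp of 24 of these 174 (13.8%, 9.04 to 19.8), and 19 of the 24 belonged to promoter peaks. Of all 40421 matches to TAACNGT on the 6 chromosome arms, 1188 (2.94%) were that close to a summit. These shares are descriptions, because splice donors and other matches differ in their distance from promoters. The classes also differ in how near their summits lie to a 5' splice site. Of 3' UTR summits, 93.1% were in the last exon of every transcript that covers them as exon, which no intron follows. The median distance to the nearer exon edge was 158 bp for coding-exon and 380 bp for 3' UTR summits. The other 8 sites of coding-exon peaks lay wholly in coding sequence. Of them, 5 read TAACNGT on the coding strand, with its first base at codon position 2 in 3 and position 3 in 2. A start at codon position 1 was all but excluded beforehand, because the letters TAA would there be a stop codon inside the coding sequence. Its absence is therefore not a result.

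In 3' UTRs, CG16989 had the highest score (582, rank 30; chrX:796694-796962), with 225 in replicate 1 and 356 in replicate 4. Act5C, a cytoplasmic actin gene, followed with 414 (chrX:5904739-5904930; 186 and 229 in the replicates). lwr, which encodes the enzyme that conjugates SUMO, had 370 (138 and 222), CG33229 had 321 (141 and 174), and Rala, a gene of a Ras-like GTPase, had 286 (155 and 129). CG1888 had 273 (96.6 and 168), and Tctp, which encodes a conserved translationally controlled protein, had 221 (101 and 119). Core sites lay at the summits in CG16989, Act5C, Rala and Tctp, and not in lwr, CG33229 or CG1888. The Rala summit lay at the 3' end of its gene, 15025 bp from a TSS, and its peak ranked 171 in replicate 1 and 569 in replicate 4. Mef2, the muscle transcription factor gene of the cytoskeleton and muscle list, had 3' UTR peaks of 117 and 62.8 with overlapping intervals and a 5' UTR peak of 107.

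Summits of 3' UTR peaks were far down the gene, at a median of 89.2% of its length and 578 bp from its end, and 163 of 175 (93.1%) were in the last exon of every transcript that covers them as exon. The nearest TSS belonged to another gene in most of them: it was the host gene's own in 45.7%, compared with 69.9% of coding-exon peaks and 92.6% of 5' UTR peaks. The median distance to any TSS was 1909 bp. On the X chromosome lay 53 of the 175 (30.3%), whereas 22.7% of the 3' UTR sequence searched is on X. For 5' UTR peaks the values were 25.9% and 22%, and for coding-exon peaks 19.9% and 17.7%. TSSs of non-coding genes lay within 500 bp of 18 of the 496 exonic peaks (3.63%), against 5.42% of all 10000 rows, and 7 of the 18 were in 3' UTRs.

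**Figure D3:**
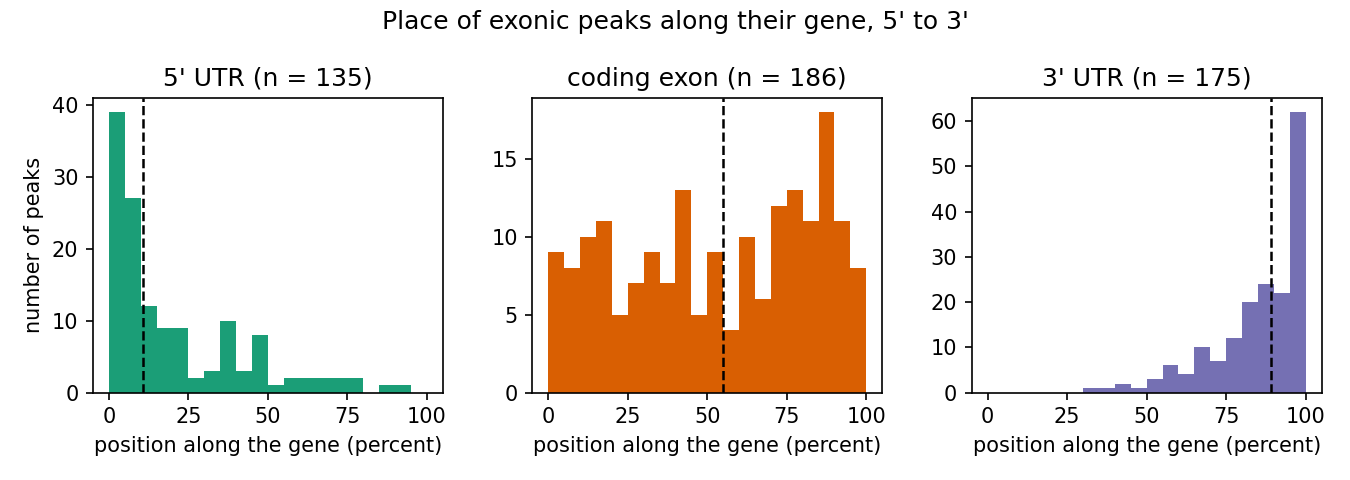
Number of exonic peaks by the position of the summit along the host gene (percent of its length from the 5' end, bins of 5), in 3 panels for the classes; dashed lines are medians. The medians are 10.7% for 5' UTR, 55% for coding exon and 89.2% for 3' UTR peaks, and coding-exon peaks are spread over the whole gene.

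Some genes held several exonic peaks. The 496 summits lay in exons of 435 genes, 3.12% of the 13945 protein-coding genes. Of these summits, 8 were in exons of more than 1 gene, and each such gene was counted. Of the 435, 53 held 2 peaks and 8 held 3. dia, which encodes a formin, corto, a chromatin-protein gene, bun and Lsd-2, a lipid-droplet gene, had all 3 in the 3' UTR, with scores between 47.9 and 253. spen had all 3 in the 5' UTR, and Mef2, bif and gce, a juvenile hormone receptor gene, had theirs in more than 1 class. Neighbouring intervals overlapped in 26 pairs, so 52 peaks (10.5%) share sequence with another, although no summits were within 100 bp of each other. These overlaps depend on the deposited interval width, which was the same for 482 of the 496 peaks. A promoter peak was also present at 303 of the 435 genes (69.7%, exact 95% interval 65.1 to 73.9), compared with 37.7% of all protein-coding genes.

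The core site was found more often at the summits than at their flanks. It lay within 50 bp of 58 of 496 summits (11.7%), against a mean of 3.93% in windows of equal size centred 500 bp to either side, a ratio of 2.97. By two-sided exact McNemar tests against each flank, with Benjamini-Hochberg adjustment over the 8 tests, the adjusted p was 0.00026 for the left flank and 7.74e-06 for the right. Over all 10000 rows, 10.1% had the site at the summit. The ratio of summits to flanks was 3.81 for promoter peaks, 3.44 for intronic peaks and 4.09 for peaks outside protein-coding genes. Each of these is above the 2.97 of exonic peaks, and whether the ratios differed was not tested. In 5' UTRs the core site was at 26 of 135 summits (19.3%) against 5.56% in flanks, a ratio of 3.47 (adjusted exact p = 0.00532 and 0.00143). In 3' UTRs it was at 20 of 175 (11.4%) against 4%, which passed the threshold of 0.05 on the right but not on the left (adjusted exact p = 0.00309 and 0.0996). In coding exons it was at 12 of 186 (6.45%) against 2.69% and passed on neither side (adjusted exact p = 0.0996 and 0.238). With the stricter letters TAACGGT, both of these classes passed on both sides, at ratios of 10 in coding exons (larger adjusted exact p = 0.0117) and 8 in 3' UTRs (0.00175).

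These comparisons depended on the replicate. In the first 10000 rows of replicate 4 alone, the rule gave 540 exonic peaks and a ratio of 2.45 (larger adjusted exact p = 0.00665). In replicate 1 alone it gave 640, of which 284 were in coding exons against 186 in the pooled list, and the ratio was 1.92 and no longer passed (larger adjusted exact p = 0.102). The coding-exon ratio was 0.667 there, and the 5' UTR ratio was 4 (larger adjusted exact p = 0.00992).

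**Figure D4:**
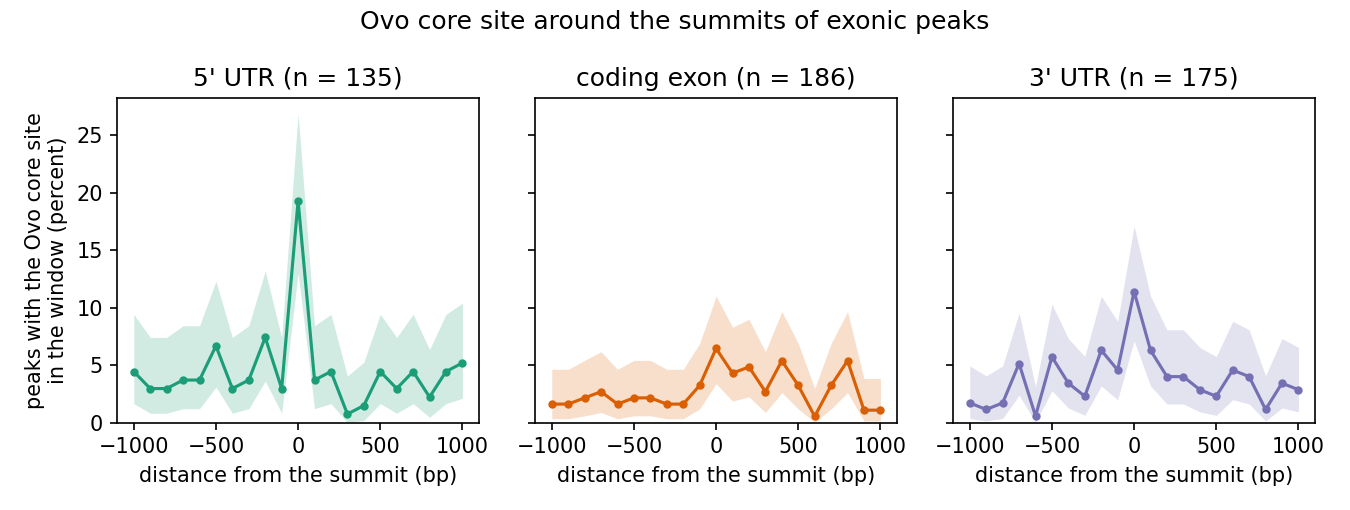
Share of exonic peaks (percent) with the Ovo core site in a 101 bp window centred at each distance from the summit (bp, in genome direction), in 3 panels by class; shading is the exact 95% interval. The share at the summit is 19.3% in 5' UTR, 6.45% in coding exon and 11.4% in 3' UTR peaks, and every other window lies at or below 7.41%, 5.38% and 6.29% respectively.

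The 5' UTR peaks carried the core site at the summit more often than intronic or promoter peaks of the same 10000 rows. Their flanks also held it more often, at 5.56%, against 2.84% for intronic and 2.67% for promoter peaks. The ratio of summits to flanks was thus alike, at 3.47, 3.44 and 3.81 in that order. At summits the odds ratio was 2.21 against introns (95% interval 1.36 to 3.47), where 9.75% of peaks had the site. Against promoters, where 10.2% had it, the odds ratio was 2.11 (1.31 to 3.29). Both had an adjusted p of 0.00606 by Fisher's exact test over 8 comparisons. Within the thresholded rows alone the odds ratios were 1.9 and 2.18 and did not pass (adjusted p = 0.128 and 0.0587, Fisher's exact test). With a window of 100 bp they were 1.65 and 1.51 and did not pass either (adjusted p = 0.209 and 0.228, Fisher's exact test). Over all 30000 rows the odds ratio against introns was 2.22 (adjusted p = 5.49e-05), while that against promoters was 1.36 and did not pass (adjusted p = 0.0894, Fisher's exact test). Coding-exon peaks had it at odds ratios of 0.638 against introns (0.32 to 1.16) and 0.61 against promoters (0.307 to 1.1), neither of which passed (adjusted p = 0.316 and 0.284, Fisher's exact test). Over all 30000 rows the coding-exon values were 0.363 and 0.222, and both passed (adjusted p = 7.29e-16 and 4.49e-39, Fisher's exact test). For 3' UTR peaks the odds ratios were 1.19 (0.699 to 1.94) and 1.14 (0.672 to 1.84). In the lists of the single replicates, the coding-exon odds ratios against introns passed the threshold, at 0.376 in replicate 4 (adjusted p = 0.00811) and 0.202 in replicate 1 (adjusted p = 5.48e-06, both Fisher's exact test). Among the exonic classes themselves, 5' UTR peaks exceeded coding-exon peaks at an odds ratio of 3.46 (1.6 to 7.82; adjusted p = 0.00213 over 3 pairs, Fisher's exact test). The odds ratio of 5' UTR against 3' UTR was 1.85 (0.937 to 3.68; adjusted p = 0.113, Fisher's exact test).

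As in the rest of the list, rows of higher score held the site more often than rows of lower score. Among exonic peaks it was at 29 of the 133 thresholded members (21.8%) and at 29 of the 363 below the threshold (7.99%), an odds ratio of 3.21 (1.76 to 5.84; adjusted p = 0.000238 over 4 comparisons, Fisher's exact test). The shares were 13.7% and 6.16% for promoter peaks and 15.5% and 6.49% for intronic peaks, and whether the fall differed between classes was not tested. In coding exons the counts were 4 of 19 and 8 of 167, an odds ratio of 5.3 (1.03 to 22.5; adjusted p = 0.0459, Fisher's exact test), and with TAACGGT this was 4.29 and did not pass (adjusted p = 0.0839). In 5' UTRs they were 16 of 62 and 10 of 73, and in 3' UTRs 9 of 52 and 11 of 123. These last 2 did not pass (adjusted p = 0.112 and 0.124, Fisher's exact test). With TAACGGT the 5' UTR odds ratio was 3.61 and passed, and that of 3' UTRs was 2.61 and did not (adjusted p = 0.0433 and 0.0839, Fisher's exact test). With a window of 100 bp, coding exons alone of the 3 classes passed, at 7.95 (adjusted p = 0.000702, Fisher's exact test). Splitting each replicate's own list after as many rows as the thresholded list holds, the odds ratio for all exonic peaks was 5.08 in replicate 4 (adjusted p = 6.93e-07) and 8.62 in replicate 1 (adjusted p = 2.07e-11, Fisher's exact test), and in these lists all 3 classes passed.

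A search over all words of 6 bases gave letters of the same site. Each 6-mer, pooled with its reverse complement, was compared between summits and both flanks, and 3 of them (0.144%) were higher at summits with an adjusted p under 0.05 on both sides by exact McNemar tests. CCGTTA, the reverse complement of TAACGG, was at 14.1% of summits against 1.81% of flanks, a ratio of 7.78 (larger adjusted exact p = 6.53e-10). AACGGT was at 11.7% against 3.02%, and ACGGTA at 7.66% against 1.51%. These 3 overlap within TAACGGTA. CCGTTA was also first in the list of each replicate and with flanks at 300 bp or windows of 25 or 100 bp. Another 10 6-mers were lower at summits, and all were rich in A and T, such as TTTAAA at 2.82% against 11.6%. The G and C content moved with them: it averaged 47.6% at exonic summits and 42.4% in flanks. In coding-exon peaks it was 54.6% against 44.9%, and all coding exon sequence searched averaged 53.4%. Only 39% of the flanks of coding-exon peaks were themselves centred in coding exons, and the part of base composition in the lower 6-mers was not tested.

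Of the other patterns searched on both strands, GAGAG, a site of GAGA factor, was at 93 of 496 summits (18.8%) against 13% of flanks, a ratio of 1.44 (adjusted exact McNemar p = 0.0284 on both sides). It was also at 18.9% of intronic and 15.9% of promoter summits. In 5' UTRs it was at 28.9% against 15.2% (adjusted exact p = 0.0284 on both sides), and in coding exons at 14.5% against 15.6%. A permuted core site, TNACAGT, which equals a form of the Ovo site when N is A, was at 4.23% of exonic summits against 3.12% of flanks and did not pass (adjusted exact p = 0.463 and 0.849). The classes differed: it was at 7.41% against 2.22% in 5' UTRs, a ratio of 3.33 that did not pass (adjusted exact p = 0.309 and 0.463). In coding exons it was at 1.08% against 3.23%, and in 3' UTRs at 5.14% against 3.71%. The permuted letters were also at 6.91% of promoter summits against 3.61% of their flanks, and at 5.8% of intronic summits against 4.03%. TATCGATA, the DNA replication-related element found at many Drosophila promoters, was at 2 of 496 exonic summits (0.403%) and 0.504% of their flanks. It was at 3.55% of promoter summits, 0.314% of intronic summits and 0.328% of summits outside protein-coding genes, so the low share was not particular to exonic peaks. The E-box CACCTG was at 11.3% of coding-exon summits against 5.11% of flanks, and passed on the right side only (adjusted exact p = 0.345 and 0.0454).

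The replicates were compared by position. A summit of the replicate's own list lay within 100 bp of the pooled summit in both replicates for 392 of 496 exonic peaks (79%), against 81% of all 10000 rows; the pooled list was made from the same reads, so this is a description. By class the shares were 81.5% of 5' UTR, 77.4% of coding-exon and 78.9% of 3' UTR peaks. The first 10000 rows of both replicate lists held 49 of 186 coding-exon peaks (26.3%), 76 of 135 5' UTR peaks (56.3%) and 79 of 175 3' UTR peaks (45.1%), against 58% of all 10000 rows, 64% of promoter peaks and 52.1% of intronic peaks. Of thresholded exonic peaks 126 of 133 were matched in both lists (94.7%), and of the weaker ones 266 of 363 (73.3%), close to the 92% and 72.1% over all 10000 rows. The thresholded list was itself made from the ranks of peaks in the replicates. Over the peaks matched in each list, the median rank of coding-exon peaks was 8332 in replicate 1 (n = 165) and 8453 in replicate 4 (n = 163). For 5' UTR peaks these were 4294 and 4736, and for 3' UTR peaks 6202 and 5992. Only 4 exonic peaks had no match in either list.

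**Figure D5:**
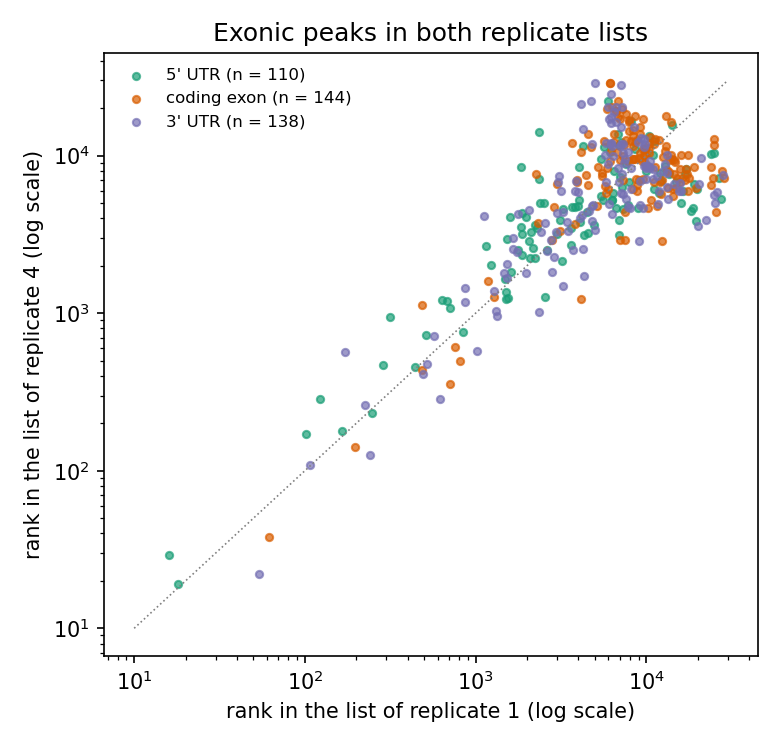
Rank of each exonic peak in the list of replicate 1 against that in replicate 4 (log axes), for the 392 peaks matched in both, coloured by class; the dotted line marks equal rank. Peaks of low rank number lie along the line, while most of the 144 coding-exon peaks lie in the cloud at the upper right.

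Of 8 gene lists, that of oocyte axis formation, germ plasm and mRNA localisation had exonic peaks at 10 of 37 genes (27%, exact 95% interval 13.8 to 44.1), compared with 3.12% of all protein-coding genes. None of these peaks was in the thresholded list, and the 10 genes were named after their values were seen. In coding exons were grk, the TGF-alpha-like signal of the oocyte (score 50.7), otu (47.5), tral (47.6), Hsp83 (45.4), par-1 (43.7), swa (42.1) and kel, a ring-canal protein gene (41.7). In 3' UTRs were exu, needed for bicoid mRNA localisation (51.3), and CycB, a mitotic cyclin gene (45.9). baz, the Par-3 polarity gene, had 2 peaks in 5' UTRs (68.3 and 45.5), and the second of them was the only one of these with a core site. In the list of replicate 1 there was no match for grk and par-1, and in that of replicate 4 none for exu and Hsp83. Promoter peaks were present at 33 of the 37 genes of this list (89.2%).

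The other 7 lists had exonic peaks at 1 to 4 genes each, shares of 4% to 13.6% against the same 3.12%. They were at 2 of 41 genes of germline and meiosis (4.88%; otu and Sxl), 1 of 25 of mRNA decay and translation control (4%; AGO1) and 2 of 25 of the Polycomb and trithorax group (8%; jing and psq). Transcription factors of patterning and steroid response had 3 of 36 (8.33%; ftz-f1, Myc and Hr4), and signalling of follicle cells 4 of 32 (12.5%; aop, arm, ttk and Mad). Among neuronal genes there were 2 of 24 (8.33%; Nrg and para), and among cytoskeleton and muscle genes 3 of 22 (13.6%; Act5C, Mef2 and chb). The lists were chosen with earlier results known and were not tested.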

How the data were processed

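ChIP-seq peak lists of Ovo-GFP from whole adult females were used on dm6: 1 list for each of the 2 replicates, a pooled list and a list cut at a threshold. Per the text file deposited beside them, the lists of peaks and background were called against a control alignment and the thresholded list was derived from them by the irreproducible discovery rate procedure. The sources used here do not name the peak caller or its limits, and the control is not analysed here. The score is the deposited value of each peak, taken as its enrichment although no source used here defines it, and the summit is the deposited offset from the peak start. The lists on dm3 were not used.

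Summits were classed on the 6 chromosome arms of Release 6 with the Ensembl 115 annotation, a promoter taking precedence, then 5' UTR, then 3' UTR, then coding exon, then intron. Sequence was searched on both strands. Shares have exact Clopper-Pearson 95% intervals and counts per Mb exact Poisson intervals. Exact McNemar and Fisher's exact tests were two-sided, with Benjamini-Hochberg adjustment, in Python 3.11.15 with scipy 1.17.1, numpy 2.4.6 and pandas 2.3.3. The tests were checked on simulated data. Alternatives changed the TSS limit, class order, rows, window, flanks, pattern and replicate list. Single-replicate fits used that replicate's first 10000 rows.

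The peaks and lists were chosen with earlier results of these data known. Named are the 6 peaks of highest score in each class, the 4 of highest score with a core site, and up to 4 genes of each gene list with a thresholded peak. Sites on arms for which no sequence is shown were counted in the same way.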

Additional observations from a re-analysis of the deposited data

How the results depend on the processing

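No paired analysis was possible because the replicates form 1 group. With a TSS limit of 1000 bp the rule kept 295 peaks, in thresholded rows 133 and in all 30000 rows 4668; in the single-replicate lists it kept 540 to 640.

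Against flanks, the core site ratio over single-replicate lists ranged from 1.92 to 2.45 for all exonic peaks, 2.82 to 4 in 5' UTRs, 0.667 to 1.45 in coding exons and 1.81 to 2.83 in 3' UTRs. In all 30000 rows it was 1.24 for all peaks, which lost the call, and 0.943 in coding exons. Coding exons passed the threshold with a TSS limit of 250 bp (3.08), with TAACGGT (10) and with flanks at 1000 bp (4.8). For 3' UTRs it was passed with windows of 25 bp (4.67) and 100 bp (2.23), with TAACGGT (8), and with flanks at 300 bp (3.64) and 1000 bp (5).

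The odds ratio of all exonic peaks against intronic peaks was 1.41 with a TSS limit of 250 bp and 1.76 with TAACGGT, both called. In all 30000 rows it was 0.581, called in the opposite direction (adjusted p = 2.22e-08, Fisher's exact test), and 0.776 to 1.05 in single-replicate lists. Against promoter peaks it was 1.34 and 1.66, both called, 0.356 with an opposite call (adjusted p = 1.47e-31, Fisher's exact test), and 0.761 to 0.893. Reversals within a class were, for coding exons, 1.46 (introns) and 1.67 (promoters) in thresholded rows and 1.03 with TAACGGT (introns). For 3' UTRs they were 0.732 and 0.448 in all 30000 rows and 0.872 to 0.975 against the promoter peaks of single-replicate lists. Against introns the 3' UTR value reversed in replicate 1 (0.89) and not in replicate 4 (1.14). The cause was not tested.

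The number of 6-mers higher at summits was 9 with windows of 100 bp. The number lower was 21 there and 0 with windows of 25 bp or flanks at 300 bp. Summits matched in both replicates made up 58.9% within 50 bp, 91.9% within 200 bp and 41.1% in the first 10000 rows. The share in the last 25% of the gene was 41.3%, 55.9% with a TSS limit of 1000 bp and 27.8% in thresholded rows. The 2 alternatives chosen after seeing the data, peaks matched in both replicates and peaks with no stronger summit within 1000 bp, kept each core site call against flanks. Depth is unknown, so weak peaks cannot be weighed by reads.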
